A study of Mus musculus with 2 samples.

Results

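Wnt signalling starts at the cell surface, where a secreted, lipid-modified Wnt protein binds a Frizzled receptor together with a co-receptor such as Lrp5 or Lrp6. Without this signal, a cytoplasmic destruction complex built on Axin and Apc lets the kinases Csnk1a1 and Gsk3 mark beta-catenin for breakdown. With it, Dishevelled proteins block the complex, and beta-catenin enters the nucleus and acts with Tcf and Lef factors. In hematopoietic stem cells (HSCs), Wnt signalling has been studied for its part in self-renewal and quiescence, and Tcf7 and Lef1 are also factors of the T lineage.

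The genes described here are the Wnt ligand and Frizzled receptor families and 28 further genes of the pathway. They were chosen by symbol, with earlier results of these data known. There were 57 such genes (19 Wnt, 10 Frizzled and 28 others) among the 23210 genes of the deposited tables. Expression was measured by RNA sequencing in mouse HSCs sorted by a Tomato reporter of Satb1, the gene of a chromatin organizer. The reporter-negative cells (SATB1-negative) and the reporter-positive cells (SATB1-positive) gave 1 library each, and both were LSK cells (lineage-negative, Sca-1-positive, Kit-positive) that were CD150-positive and Flt3-negative. The labels name no age, sex or strain background, no treatment and no number of pooled animals for either group, and what drives the reporter is not given in the sources used here.

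Levels are in FPKM, which divides the fragments of a gene by its transcript length and by the library's mapped total, so they can be compared between genes. With 1 library per group there is no replicate spread, no test was possible and no p-value is given; each comparison is between these 2 libraries. Depth was about 34920000 fragments for SATB1-negative and 26843844 for SATB1-positive HSCs, estimated from the steps of low FPKM values. Folds are plain FPKM ratios. The range after each is a 95% Clopper-Pearson interval on fragment numbers estimated from FPKM, and is approximate. It covers counting error only, not the spread between animals or sorts. Pairs of FPKM values are given in the order SATB1-negative, then SATB1-positive, and "lower" or "higher" means in the SATB1-positive library. Satb1 was at 2.37 and 8.26 FPKM. The HSC markers Kit, Ly6a, Slamf1, Procr, Mecom, Hlf and Meis1 were all present in both libraries, with summed levels of 770.4 and 657 FPKM.

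The Wnt system of these cells was one of receptors and intracellular components with almost no ligand transcript. Of the 57 genes, 28 reached 1 FPKM in either library and are called measured below, against 51.2% of all genes, and 5 were listed at 0 in both. The measured genes were 5 Frizzled receptors, 3 co-receptors, 2 genes of ligand export, 2 of receptor turnover or inhibition, 3 Dishevelled genes, 5 of the destruction complex and 8 nuclear components. No Wnt gene was among them. The most abundant was Csnk1a1, at 221 and 207 FPKM. Wls, Ctnnb1, Axin1 and Gsk3a came after it, with Axin1 above Gsk3a in the SATB1-negative library and below it in the SATB1-positive library.

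Most of the 28 measured members differed by less than 1.5-fold between the libraries. No member met the rule of size, which takes log2((SATB1-positive FPKM + 1)/(SATB1-negative FPKM + 1)), requires it to reach 1 or -1, and leaves out genes under 5 FPKM in both libraries. Of the members, 20 reached 5 FPKM. Of all 9308 genes at that level, 1.31% met the rule as higher and 0.688% as lower. At such shares 20 genes are too few for the lack of a call to set the members apart from other genes. A smaller rule asked for a plain fold of at least 1.5, an interval leaving out 1 and a level of 1 FPKM or more in the higher one of the libraries. It counted 4 members as lower in the SATB1-positive library (Fzd4, Fzd9, Ryk and Porcn) and 1 as higher (Tle3), together 17.9% of the 28, against 11.9% of all 10640 genes with such an interval. The 4 lower members were 14.3% of the 28, and the share was 6.04% over those 10640 genes. It was 12.3% over genes whose higher library had 1 to 10 FPKM, a band chosen after the values were seen. Ryk and other members, such as Csnk1a1, Wls and Ctnnb1, lay above that band, so the 12.3% and the 14.3% cover unlike ranges of level. Porcn and Sfrp1 reached 1 FPKM in the SATB1-negative library alone, so that filter could count them in 1 direction only. The log2 ratio was below 0 in 21 of the 28 measured members (75%). The share was 51.0% over all genes with at least 1 FPKM and 53.3% over those with 1 to 10 FPKM. That band leaves out members such as Ryk and Csnk1a1. The members' median was -0.17, against -0.0059 over all genes with at least 1 FPKM and -0.027 over those with 1 to 10 FPKM.

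**Figure D1:**
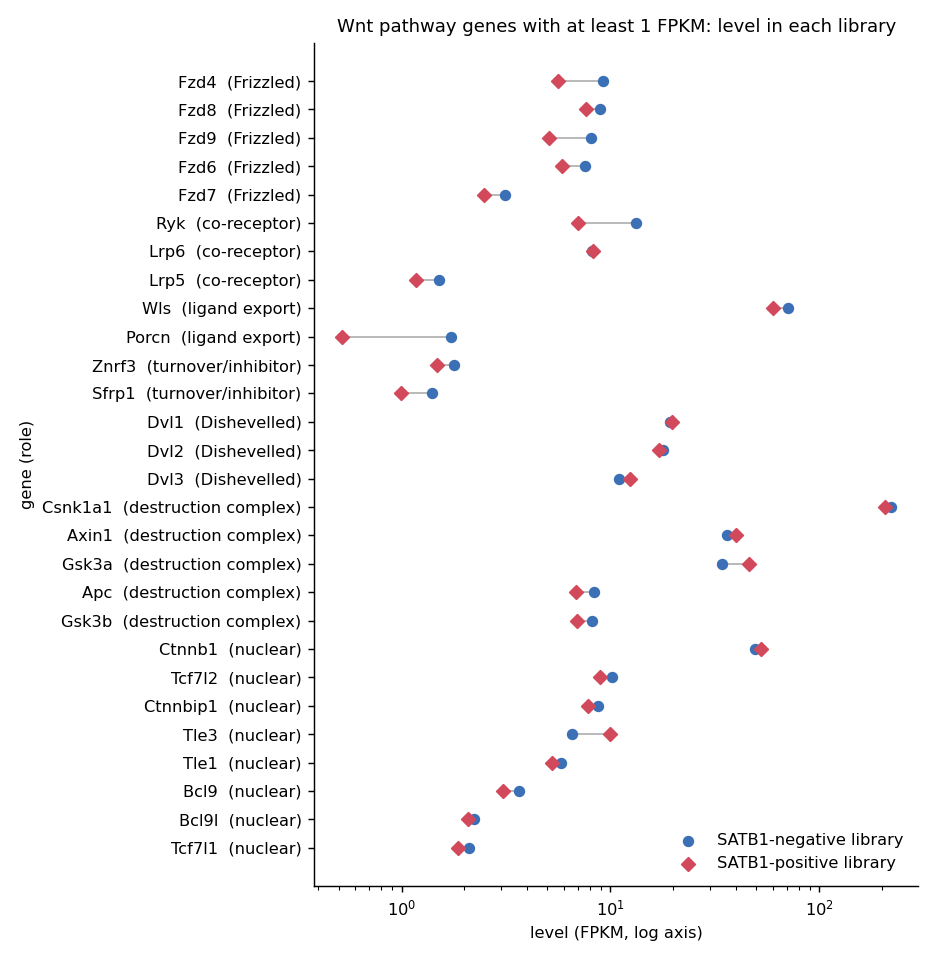
Level in FPKM (log axis) of the 28 measured Wnt pathway genes, grouped by role; circles are the SATB1-negative and diamonds the SATB1-positive library, 1 library each. Levels run from 0.517 FPKM for Porcn in the SATB1-positive library to 221 FPKM for Csnk1a1 in the SATB1-negative library, and all 5 Frizzled genes lie further left in the SATB1-positive library.

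The Frizzled genes encode the seven-transmembrane receptors of Wnt proteins. Fzd4 was at 9.25 and 5.61 FPKM, 1.65-fold lower (1.53 to 1.78; about 2104 and 981 fragments). The SATB1-positive value lay outside the counting error of the other. Fzd9, an intronless gene, was at 8.10 and 5.10 FPKM, 1.59-fold lower (1.38 to 1.84; about 591 and 286 fragments). Smaller differences in the same direction were seen in the other measured receptors. Fzd6, known for its role in planar cell polarity, was at 7.56 and 5.86 FPKM (1.29-fold lower, 1.17 to 1.43). Fzd7 was at 3.14 and 2.48 FPKM (1.27-fold lower, 1.09 to 1.47), and Fzd8 at 8.88 and 7.61 FPKM (1.17-fold lower, 1.08 to 1.26). Thus all 5 measured Frizzled genes were lower in the SATB1-positive library with an interval leaving out 1, whereas 31.5% of all genes had such an interval below 1. Only Fzd4 and Fzd9 passed the smaller rule.

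The other five Frizzled genes were near or under 1 FPKM. Fzd3 was at 0.892 and 0.588 FPKM, 1.52-fold lower (1.27 to 1.81), and missed the smaller rule only through its minimum level. Fzd1 was at 0.510 and 0.359 FPKM, Fzd5 at 0.483 and 0.362 FPKM and Fzd2 at 0.0672 and 0.0328 FPKM, each with an interval that held 1. Fzd10 was listed at 0 in both libraries. All 4 of these that were above 0 were lower in the SATB1-positive library, as were 47.4% of all genes above 0 and below 1 FPKM. The summed Frizzled level was 38.9 and 28.004 FPKM, a ratio of 0.720.

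The order of the receptors differed between the libraries at its top. In the SATB1-negative library Fzd4, Fzd8, Fzd9 and Fzd6 followed each other with overlapping 95% Poisson intervals between neighbours, and Fzd7 stood apart below them. In the SATB1-positive library Fzd8 stood apart above Fzd6, Fzd4 and Fzd9, whose neighbouring intervals overlapped. Fzd4 held 23.8% of the summed Frizzled level in the SATB1-negative library and 20.04% in the SATB1-positive library, and Fzd8 22.8% and 27.2%. These intervals treat each fragment as an independent molecule.

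**Figure D2:**
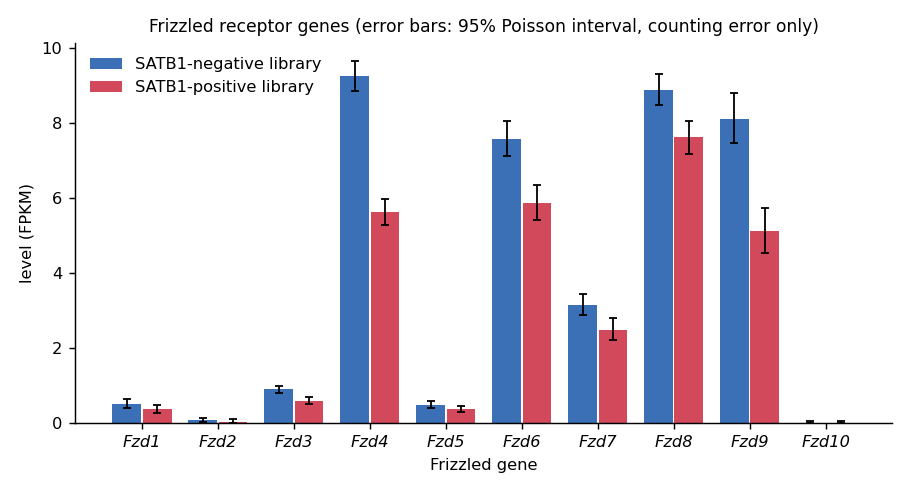
Level in FPKM of each Frizzled gene; bars are the 2 libraries and error bars 95% Poisson intervals for counting error only. Fzd4, Fzd6, Fzd8 and Fzd9 form the upper group, at 7.56 to 9.25 FPKM in the SATB1-negative and 5.10 to 7.61 FPKM in the SATB1-positive library.

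Among the co-receptors, the kinase-like Wnt receptor Ryk showed the largest difference in level of the receptor genes. It was at 13.2 and 7.02 FPKM, 1.88-fold lower (1.68 to 2.11; about 1061 and 433 fragments), with a log2 ratio of -0.83. Lrp6, which relays the canonical signal, was at 8.13 and 8.25 FPKM, and its fold of 1.01 had an interval of 0.957 to 1.08. Its relative Lrp5 was lower in level, at 1.51 and 1.17 FPKM (1.29-fold lower, 1.06 to 1.59). Ror1 and Ror2, receptor kinases of non-canonical signalling, were below 1 FPKM. Ror1 was at 0.155 FPKM in the SATB1-negative library, from about 30 fragments, and was listed at 0 in the SATB1-positive library; its counting interval left out 1, and no fold is given against a listed 0. Ror2 was at 0.244 and 0.149 FPKM, with an interval that held 1.

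Fzd4 (ENSMUSG00000049791.4) lies on the plus strand of chromosome 7 at 89404355 to 89413134, Fzd9 (ENSMUSG00000049551.2) on the minus strand of chromosome 5 at 135248938 to 135251230, and Ryk (ENSMUSG00000032547.12) on the plus strand of chromosome 9 at 102834917 to 102908305, in the GENCODE M21 annotation of mm10. No exon base of these 3 genes overlapped another annotated gene, and at most 0.12% of their 50-base words stood in transcripts of another gene. The bases upstream of the start are shown for the members past the smaller rule that had a window and whose RefSeq and GENCODE starts lay within 30 bases. Fzd9 was left out because its starts lay 183 bases apart. Porcn, which had the largest fold of the measured members, had no window. They are the 250 bases before the RefSeq start (GRCm38.p6, the mm10 assembly) of Fzd4 (chr7:89404116-89404365), Ryk (chr9:102834670-102834919) and Tle3 (chr9:61372116-61372365), all on the plus strand, 5′ to 3′, with CG dinucleotides in capitals.
Fzd4: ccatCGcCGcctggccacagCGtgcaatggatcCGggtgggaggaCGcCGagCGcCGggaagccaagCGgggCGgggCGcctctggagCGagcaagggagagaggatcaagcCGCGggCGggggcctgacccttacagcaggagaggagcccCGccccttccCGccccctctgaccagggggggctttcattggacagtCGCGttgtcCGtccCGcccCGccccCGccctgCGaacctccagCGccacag
Ryk: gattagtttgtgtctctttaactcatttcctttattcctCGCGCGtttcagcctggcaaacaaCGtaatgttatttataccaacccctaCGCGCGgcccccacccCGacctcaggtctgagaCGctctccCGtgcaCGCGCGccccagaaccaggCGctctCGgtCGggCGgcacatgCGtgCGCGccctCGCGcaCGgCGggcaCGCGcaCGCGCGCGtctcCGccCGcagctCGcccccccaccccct
Tle3: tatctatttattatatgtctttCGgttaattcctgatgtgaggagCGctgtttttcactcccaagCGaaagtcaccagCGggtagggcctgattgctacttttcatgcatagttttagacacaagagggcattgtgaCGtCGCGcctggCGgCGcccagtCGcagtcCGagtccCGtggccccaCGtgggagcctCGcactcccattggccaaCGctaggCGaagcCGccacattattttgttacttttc

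All 3 windows were rich in CG, a trait not particular to these members. Windows of measured members not past the smaller rule held from 7 (a start of Tcf7l2) to 43 (a start of Ctnnb1) CG dinucleotides. Fzd4 had 25 CG dinucleotides, Ryk 33 and Tle3 17, against a median of 6 over 32851 RefSeq windows of that length; 10.7%, 4.03% and 23.5% of those windows held as many or more. Their GC content was 72.8%, 65.2% and 52.4%, and the median over all windows was 52.4%. Each window was searched on both strands for 4 words. The Tcf/Lef word CTTTGA stood in 13.8% of all windows. The GATA word was AGATAA, found in 9.99%, and the ETS word was CGGAAG, found in 13.6%. The RUNX word, TGTGGT, was in 14.05%. None of the 4 words was in the windows of Fzd4, Ryk and Tle3. A match or its absence describes these letters only.

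Ligand export was represented by a scarce gene and an abundant one. Porcn, the enzyme that attaches the lipid to Wnt proteins, was at 1.73 and 0.517 FPKM. This was the largest fold of the measured members, 3.35-fold lower (2.09 to 5.46), but it rests on about 99 and 23 fragments. Wls, the carrier that brings Wnt proteins to the surface, was at 70.9 and 59.98 FPKM, 1.18-fold lower (1.13 to 1.24). Its ample level stood beside ligand genes that were close to 0.

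Of the 19 Wnt genes, 4 (Wnt1, Wnt7a, Wnt9b and Wnt16) were listed at 0 in both libraries. The highest was Wnt4, at 0.318 and 0.331 FPKM, from about 44 and 35 fragments. Below it, in an order that differed between the libraries, were Wnt5b at 0.252 and 0.294 FPKM, Wnt2b at 0.248 and 0.144 FPKM, Wnt6 at 0.139 and 0.281 FPKM and Wnt11 at 0.134 and 0.304 FPKM. Wnt10b was at 0.114 and 0.0925 FPKM. Wnt2, Wnt3, Wnt3a, Wnt5a, Wnt7b, Wnt8a, Wnt8b, Wnt9a and Wnt10a were below 0.1 FPKM in both. The canonical ligand Wnt3a was at 0.0339 and 0.0588 FPKM, and the non-canonical ligand Wnt5a at 0.0572 and 0.0212 FPKM, from at most 7 fragments. Each Wnt gene with an interval had one that held 1, so no difference in a ligand was detectable at this depth. The 19 genes summed to 1.48 and 1.603 FPKM.

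The 2 measured genes that limit the signal at the surface were lower by less than 1.5-fold, with intervals leaving out 1. Znrf3, a ubiquitin ligase that removes Frizzled proteins, was at 1.79 and 1.48 FPKM (1.21-fold lower, 1.01 to 1.46). Sfrp1, a secreted decoy for Wnt proteins, was at 1.40 and 0.997 FPKM (1.41-fold lower, 1.12 to 1.797). Rnf43, the partner of Znrf3, was at 0.343 and 0.392 FPKM, and the Lrp antagonist Dkk1 at 0.0424 and 0.0920 FPKM, both with intervals that held 1. Receptors, co-receptors, export, turnover and inhibitor genes together had 12 measured members with a median log2 ratio of -0.26. Of these, 11 were lower with an interval leaving out 1, against 31.5% of all genes, but Porcn and Sfrp1 among them could only count as lower. Joining these roles into 1 group, and the intracellular roles into another below, was not among the planned results.

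**Figure D3:**
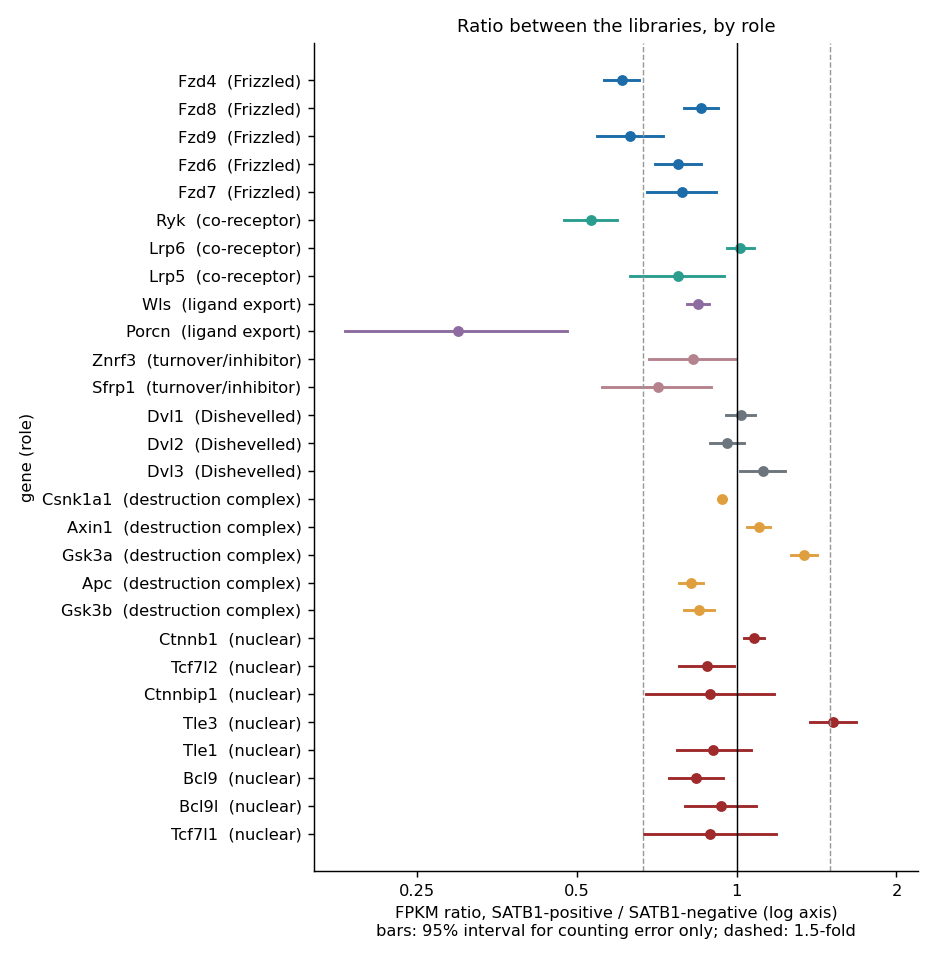
FPKM ratio of the SATB1-positive to the SATB1-negative library (log axis) for the 28 measured genes, ordered by role; bars are 95% intervals for counting error only and dashed lines mark 1.5-fold. Frizzled genes, Ryk and Porcn lie left of 1, and Tle3 is the single gene beyond the right dashed line.

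The intracellular part of the pathway lay nearer to 1. Of its 16 measured members, 5 had an interval below 1 and 5 above 1, against 31.5% and 31.7% of all genes, and 6 had one that held 1; the median log2 ratio was -0.08. The summed level was 445 and 448 FPKM. Dvl1 was at 19.4 and 19.7 FPKM, Dvl2 at 17.8 and 17.1 FPKM and Dvl3 at 11.04 and 12.4 FPKM. Of these Dishevelled genes only Dvl3 had an interval leaving out 1, at 1.12-fold higher (1.02 to 1.23).

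The 5 measured destruction complex genes divided by direction, all within 1.5-fold. The scaffold gene Axin1 was at 36.3 and 39.9 FPKM, 1.10-fold higher (1.05 to 1.16). The other scaffold gene, Apc, was at 8.36 and 6.86 FPKM, 1.22-fold lower (1.16 to 1.28). The paralogous kinase genes Gsk3a and Gsk3b went in opposite directions. Gsk3a was at 34.3 and 45.96 FPKM, 1.34-fold higher (1.27 to 1.41), while Gsk3b was at 8.19 and 6.96 FPKM, 1.18-fold lower (1.10 to 1.26). In Gsk3a 28.3% of exon bases overlap an antisense gene, 9130221H12Rik, and the strand setting of counting is not given in the sources used here. Antisense genes also overlap exon bases of other genes described here. The shares were 25.8% in Ctnnbip1, 18.3% in Dvl2, 17.8% in Fzd5, 14.6% in Ctnnb1, 13.7% in Lef1 and 9.65% in Bcl9l. Smaller overlaps stood in Tcf7l1, Fzd6, Tle1 and Dvl1. Csnk1a1, the priming kinase, was 1.07-fold lower (1.05 to 1.09). Axin2, both a scaffold and a classical target of beta-catenin, was close to the floor at 0.0851 and 0.175 FPKM, from about 12 and 19 fragments; its fold of 2.06 had an interval of 0.949 to 4.65.

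Beta-catenin itself, Ctnnb1, was at 49.1 and 52.9 FPKM, 1.08-fold higher (1.03 to 1.13). Its inhibitor Ctnnbip1 was at 8.76 and 7.79 FPKM, with an interval that held 1. The co-activators Bcl9 and Bcl9l were at 3.63 and 3.05 FPKM and at 2.23 and 2.09 FPKM; the interval left out 1 for Bcl9 (1.19-fold lower, 1.06 to 1.34) and not for Bcl9l. Of the Groucho-type co-repressors, Tle3 was at 6.57 and 9.97 FPKM. It was 1.52-fold higher (1.38 to 1.67; about 761 and 888 fragments), just past the smaller rule, whose background for higher genes was 5.88%. Its paralog Tle1 was at 5.82 and 5.26 FPKM, with an interval of 0.941 to 1.30 around a fold of 1.11 lower.

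The 4 DNA-binding partners of beta-catenin differed in direction. Tcf7l2 was at 10.2 and 8.91 FPKM (1.14-fold lower, 1.01 to 1.28), and Tcf7l1 at 2.10 and 1.87 FPKM with an interval that held 1. The remaining family members, Tcf7 and Lef1, belong to the wider list below. Tcf7, which encodes TCF-1, was at 2.38 and 7.89 FPKM, 3.32-fold higher (2.69 to 4.10; about 128 and 326 fragments). Lef1 was at 0.498 and 2.33 FPKM, 4.67-fold higher (3.25 to 7.05; about 36 and 131 fragments). Tcf7 met the rule of size, which 1.31% of genes met as higher, and Lef1 did not because it stayed under 5 FPKM. With a pseudocount of 5 FPKM the log2 ratio of Tcf7 was 0.81, under the rule.

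T and natural killer cell markers moved with Tcf7 and Lef1. All 10 markers on that list were above 0 in both libraries and higher in the SATB1-positive one, 4 of them past the rule of size, and their summed level was 14.2 and 63.2 FPKM. The most abundant were Cd3e (2.76 and 15.4 FPKM), Il2rb (1.69 and 13.6 FPKM) and Cd3g (2.95 and 13.2 FPKM). Mast cell and basophil markers (5 of 5 past the rule) summed to 155 and 556 FPKM. The part of these cell types in the Tcf7 and Lef1 difference was not tested. The lower receptor genes stood beside lower HSC markers: 6 of 7 were lower in the SATB1-positive library, with a median log2 ratio of -0.34. Over all genes with at least 1 FPKM, 51.0% were lower. Endothelial markers summed to 80.0 and 60.05 FPKM. Of these Tek was at 25.6 and 15.5 FPKM, Emcn at 20.7 and 14.5 FPKM and Pecam1, in the other direction, at 20.6 and 22.9 FPKM, while Cdh5 was near 0 at 0.0837 and 0.00989 FPKM. Whether these marker differences and those in Frizzled and Ryk arose in the same cells was not tested. In such bulk RNA fewer cells of a type and less RNA per cell cannot be told apart. Stromal markers summed to 37.6 and 93.4 FPKM. Col1a1 (16.8 and 48.3 FPKM), Col1a2 (7.52 and 18.6 FPKM), Pdgfrb (3.25 and 10.6 FPKM) and Sparc (5.46 and 11.97 FPKM) were 4 of 9 past the rule of size as higher, Cxcl12 was at 4.19 and 2.87 FPKM, and Pdgfra, Lepr and Col3a1 were under 0.2 FPKM in both. Osteoblast markers summed to 23.55 and 23.8 FPKM, mostly from Runx2 at 17.0 and 15.9 FPKM. Ibsp was at 1.36 and 3.08 FPKM, 2.26-fold higher (1.72 to 2.96), while Runx2 and Bglap had intervals that held 1. B cell markers summed to 34.9 and 35.1 FPKM, nearly all from Cd79b at 34.3 and 33.9 FPKM.

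**Figure D4:**
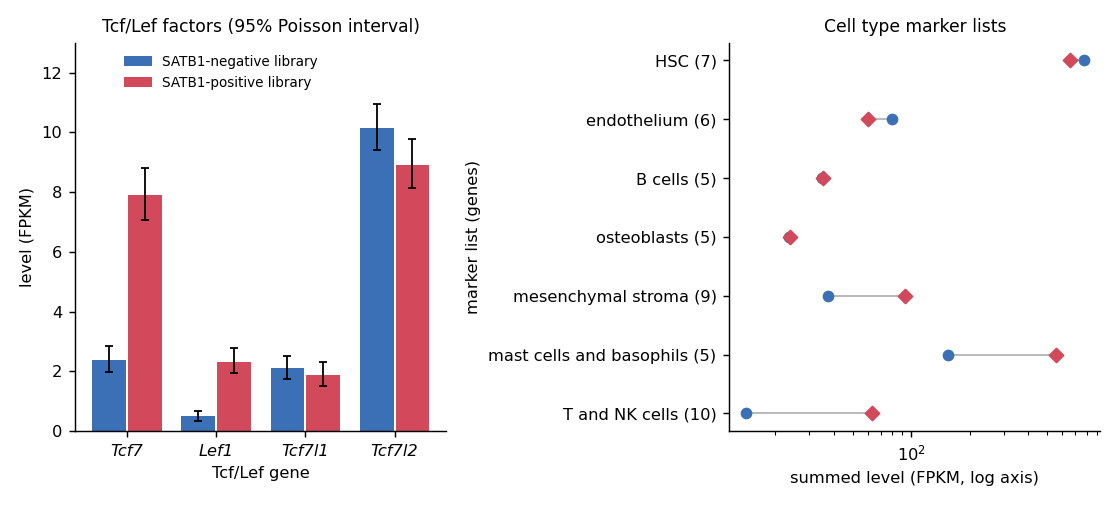
Left, level in FPKM of the 4 Tcf/Lef genes in the 2 libraries, with 95% Poisson intervals for counting error only; right, summed FPKM (log axis) of the cell type marker lists, with the number of genes in brackets. Tcf7 and Lef1 are higher in the SATB1-positive library, as are the T and NK cell, mast cell and stromal sums.

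A wider list of 96 other pathway genes gave a median log2 ratio of 0.02 over its 63 measured genes, 29 of them below 0. Tcf7 alone met the rule of size. Under the smaller rule Tcf7 and Lef1 were higher, and the co-repressor gene Tle6 and the planar polarity gene Vangl1 lower; Lef1 and Vangl1, under 5 FPKM, were named after their values were seen, and Lef1, at 1 FPKM or more in the SATB1-positive library alone, could only count as higher. Over the 63 genes, 17 had an interval below 1 and 19 above 1, beside the 31.5% and 31.7% of all genes with an interval. Fam123b, among the 63, had no interval. Tle6 was at 22.3 and 14.8 FPKM (1.51-fold lower, 1.37 to 1.65), and Vangl1 at 2.90 and 1.86 FPKM (1.56-fold lower, 1.36 to 1.79).

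Extracellular regulators on this list were scarce. Only 1 of 12 genes listed as secreted antagonists was measured, the Dkk-like gene Dkkl1 at 28.5 and 23.2 FPKM (1.23-fold lower, 1.11 to 1.37). Whether it acts on Wnt signalling in these cells was not tested. The other 11 were under 1 FPKM, among them Sfrp4 at 0.389 and 0.867 FPKM and Sfrp2 at 0.416 and 0.292 FPKM. Of the R-spondins, which stabilise Frizzled proteins, and their Lgr receptors only Lgr4 was measured, at 2.97 and 2.43 FPKM, while the stem cell marker of epithelia Lgr5 was at 0.396 and 0.0996 FPKM. The pseudoreceptor gene Bambi was at 9.17 and 7.66 FPKM and the Dkk receptor gene Kremen1 at 7.44 and 7.31 FPKM. Of the 7 other membrane protein genes measured on the list, 2 (Bambi and Vangl1) had an interval below 1, 1 (Vangl2) above 1 and 4 one that held 1.

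Cytoplasmic, nuclear and non-canonical components were abundant, with medians near 0. The 19 measured kinase and scaffold genes had a median log2 ratio of 0.08, with Frat2, a Gsk3-binding protein, at 85.7 and 95.3 FPKM and Csnk1g2 at 86.2 and 95.9 FPKM. Nuclear factors had a median of 0.02 over 19 genes. Among them Aes, a short Groucho-type protein, was at 209 and 259 FPKM and the co-repressor Ctbp1 at 181 and 173 FPKM. The 16 non-canonical effector genes had a median of -0.04, and the small GTPase genes Cdc42 and Rhoa were at 326 and 342 FPKM and at 279 and 261 FPKM.

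Textbook targets of beta-catenin did not share a direction. Of 37 listed targets, which include some pathway genes already described, 20 were measured; 10 were higher and 10 lower in the SATB1-positive library, with a median log2 ratio of -0.05. Among feedback genes, Znrf3 was measured at the level given above, and others were low in both libraries: Axin2, Nkd1 (0.105 and 0.127 FPKM), Notum (0.0634 and 0.0206 FPKM), Lgr5 and Rnf43 all stayed under 0.5 FPKM, and Sp5 was listed at 0 in the SATB1-negative and at 0.0198 FPKM in the SATB1-positive library. Myc was at 138 and 139 FPKM.

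Of the 14 targets that reached 5 FPKM, the rule of size was met by 2 as higher, Tcf7 and Id2, and by 2 as lower, Mycn and Ccnd1. Of all genes at that level, 1.31% were higher and 0.688% lower by that rule. Id2, an inhibitor of E proteins, was at 17.2 and 45.9 FPKM, 2.67-fold higher (2.43 to 2.94). Mycn, at 86.6 and 41.5 FPKM, was 2.08-fold lower (1.995 to 2.18) and Ccnd1, cyclin D1, at 8.19 and 3.51 FPKM, 2.33-fold lower (2.06 to 2.65); in Ccnd1 23.4% of exon bases overlap an antisense gene. The smaller rule counted 4 of the 20 measured targets as higher and 5 as lower. Over all 10640 genes with an interval, it counted 5.88% as higher and 6.04% as lower. Beyond the genes just named it counted Lef1 and Cdx1, a homeobox gene at 0.484 and 1.02 FPKM (2.10-fold, 1.26 to 3.57), as higher. Fosl1, which encodes an AP-1 subunit, was lower at 1.21 and 0.723 FPKM (1.67-fold, 1.09 to 2.64). Each of these 3 genes reached 1 FPKM in 1 library alone, so the filter set the direction in which it could count, and Cdx1 and Fosl1 were named after their values were seen. By the same rule Ccnd2, cyclin D2, was also lower, at 84.7 and 55.6 FPKM (1.52-fold, 1.49 to 1.56), as was Plaur, the urokinase receptor gene, at 176 and 115 FPKM (1.53-fold, 1.47 to 1.59). The most abundant target, Jun, was at 550.02 and 703 FPKM. All these targets respond to other pathways too.

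**Figure D5:**
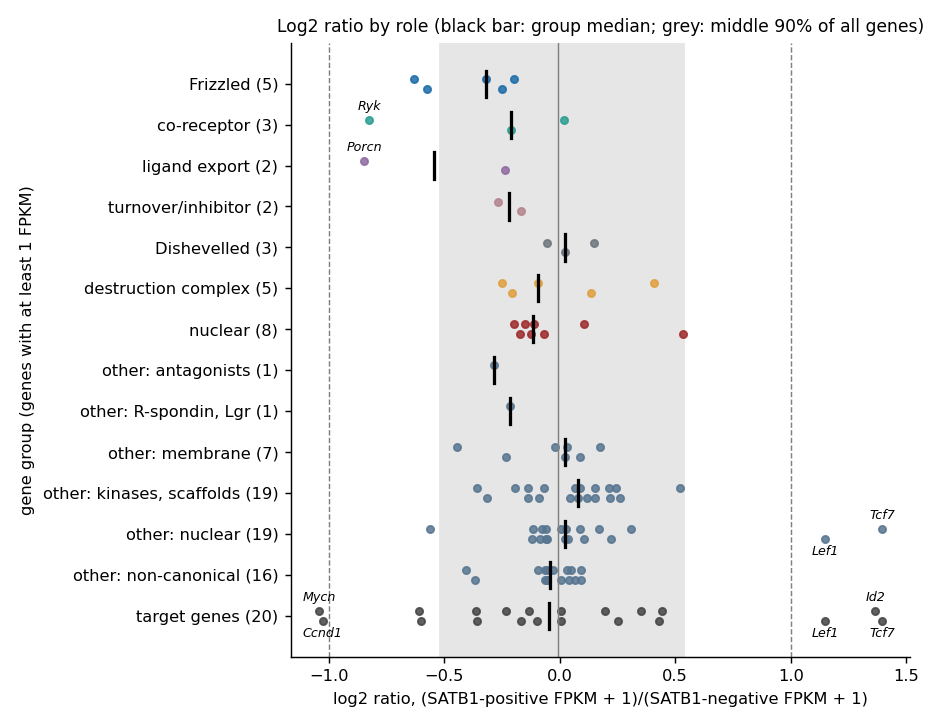
Log2 ratio with a pseudocount of 1 FPKM for each measured gene, by role; black bars are group medians, the grey band holds the middle 90% of all genes with at least 1 FPKM (-0.52 to 0.54) and dashed lines mark the 2-fold rule. Frizzled genes have a median of -0.32, and Tcf7, Lef1, Id2, Mycn and Ccnd1 lie outside the dashed lines.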

How the data were processed

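The authors deposited a table of FPKM for each library, with gene symbols in rows. Per the submitters' processing notes, Cufflinks 2.2.1, TopHat2 2.0.13, SAMtools 0.1.19 and Bowtie2 2.2.3 were used with mm10. Their roles and settings, the annotation and the strand setting were not given in the sources used here. RNA was extracted with a miRNeasy kit and libraries made with the SMARTer Stranded kit, per the labels' protocols. Each table held 23235 rows, of which 25 with date-like symbols were left out. Members and lists were chosen with earlier results of these data known. One marker gene is not reported here and was left out of its list. By rule, named genes were all measured members, Wnt and Frizzled genes above 0, and, of other lists, those past the rule of size, those past the smaller rule with at least 5 FPKM, and the 2 most abundant per role. Other genes named, such as unmeasured members, feedback targets and markers near 0, were chosen after their values were seen.

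Values near 0 step by 1 fragment. The commonest ratio of low values gave the depth ratio (1.301, 445 of 3442 genes). Single-exon, single-transcript GENCODE M21 genes gave the depth, with an offset of 205 bases; 64.8% of 176 and 63.7% of 204 values then came out whole within 0.05 fragments. This is too few to treat FPKM as counts. All intervals, and the smaller rule that uses them, rest on estimated fragment numbers and are approximate. Fragments per gene used the shortest annotated RefSeq-linked transcript. Fragments copied by PCR are not independent, so intervals can be too narrow. Promoter windows came from RefSeq. The scripts, in Python 3.11.15 with SciPy 1.17.1, were tested on simulated data. Alternatives were pseudocounts of 0.1 and 5 FPKM, 3 scalings, other minimum levels, thresholds and transcript lengths.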

Additional observations from a re-analysis of the deposited data

How the results depend on the processing

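Each group had 1 library, so leaving out a replicate was not possible, and no difference here is known beyond these 2 libraries. No paired analysis was possible because each group had a single library. No member met the rule of size under any pseudocount, scaling or minimum level tried. With a 2-fold threshold the smaller rule counted 1 member, Porcn; with no minimum level it counted 7, and with at least 5 FPKM 4. The members' median log2 ratio ranged from -0.20 (pseudocount 0.1 FPKM) to -0.05 (no minimum level). The target genes' median was 0.03 with no minimum level. The scalings shifted log2 ratios by only -0.0054 to 0.0030, and a pseudocount cannot change their sign. Depth limits members with few fragments, such as the Wnt genes, Axin2, Dkk1 and Fzd2.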
